A study of Mus musculus with 24 samples.

Results

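The 10 genes described here act in fat absorption and chylomicron assembly in the enterocyte, the absorptive cell of the gut lining. They were chosen by name (Cd36, Fabp1, Fabp2, Mogat2, Dgat1, Apob, Mttp, Apoa1, Apoa4 and Apoc3), and each was measured by 1 probe set, so that 10 of 10 were found among the 15267 genes tested. Their RNA levels were compared over 4 segments of the intestine of Amacr-/- and wild-type mice. Amacr encodes alpha-methylacyl-CoA racemase, a peroxisomal and mitochondrial enzyme of bile acid synthesis and of the breakdown of branched-chain fatty acids. The Amacr-/- groups and the wild-type groups were male C57BL/6 mice aged 3 to 3.5 months. Each group, a genotype in a segment, had 3 arrays, which gave 8 groups and 24 arrays. The sources used here do not give how the Amacr allele was made. The study's stated background is cholesterol absorption, and its comparison is that of the genotypes in each segment.

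Dietary triglyceride is split in the gut lumen, and the fatty acids and monoglycerides are taken up by enterocytes, bound by fatty acid binding proteins and joined again into triglyceride in the endoplasmic reticulum. The microsomal triglyceride transfer protein loads that fat onto apolipoprotein B, and smaller apolipoproteins cover the surface of the chylomicron that leaves the cell for the lymph. Bile acids, whose synthesis uses Amacr, solubilise fat in the lumen. Most fat is taken up in the proximal small intestine, and most bile acid in the ileum.

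Amacr was lower in the arrays labelled Amacr-/- in every segment, at means of 5.34, 5.22, 5.31 and 4.96 in segments 1 to 4, against 8.42, 8.07, 7.26 and 7.03 in wild-type arrays (log2, n = 3 each). The sources used here do not give which part of the gene its probes match. All levels are on the log2 scale of the deposited values, where a difference of 1 is a factor of 2. The labels do not say which end segment 1 is. The ileal bile acid carrier gene Slc10a2 had a mean of 11.72 in segment 4 and 4.52 in segment 1 of Amacr-/- mice, and 11.35 in segment 4 and 4.40 in segment 1 of wild-type mice, so segment 4 is the ileal end. The labels call the scraped layer endothelial. The 11 measured markers of epithelium, however, lay at 10.35 to 14.32 over the 24 arrays (Epcam at 13.32 to 13.98, Vil1 at 13.27 to 13.60). The 9 of vessel endothelium lay at 3.57 to 7.70 (Cdh5 at 4.28 to 4.76, Pecam1 at 4.66 to 5.98). Among the latter, Kdr (6.27 to 7.29) and Eng (7.09 to 7.70) lay above the array medians of 6.06 to 6.16. On 6 of the 24 arrays the mean of the fat cell, smooth muscle or exocrine pancreas markers lay over 1 above its mean over all arrays. The highest was Amacr-/- replicate 3 of segment 3, with fat cell markers 3.98 above. The number of arrays limits the precision of every value.

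The levels fell into 3 patterns along the intestine, and these were shared by the genotypes. Cd36, Fabp1, Apoa4 and Apoc3 were much lower in segment 4 than in segment 1, by 2.71-fold to 20.3-fold. Mogat2, Dgat1, Apob and Mttp had means 1.23-fold to 1.77-fold lower in segment 4, of which that of Apob in wild-type mice did not pass the test. Fabp2 and Apoa1 differed between those segments by at most 0.17. In the fits of segment 4 against segment 1, 8 of the 10 genes fell and 0 rose in Amacr-/- mice, where 14.9% of all genes fell and 15.4% rose. In wild-type mice 7 fell and 1 rose, where 13.6% of all genes fell and 10% rose. The median difference of the 10 genes was -0.73 in Amacr-/- mice and -0.64 in wild-type mice, against -0.01 and 0.03 over all genes. Calls are at an adjusted p under 0.05 by limma with Benjamini-Hochberg adjustment over all genes.

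**Figure D1:**
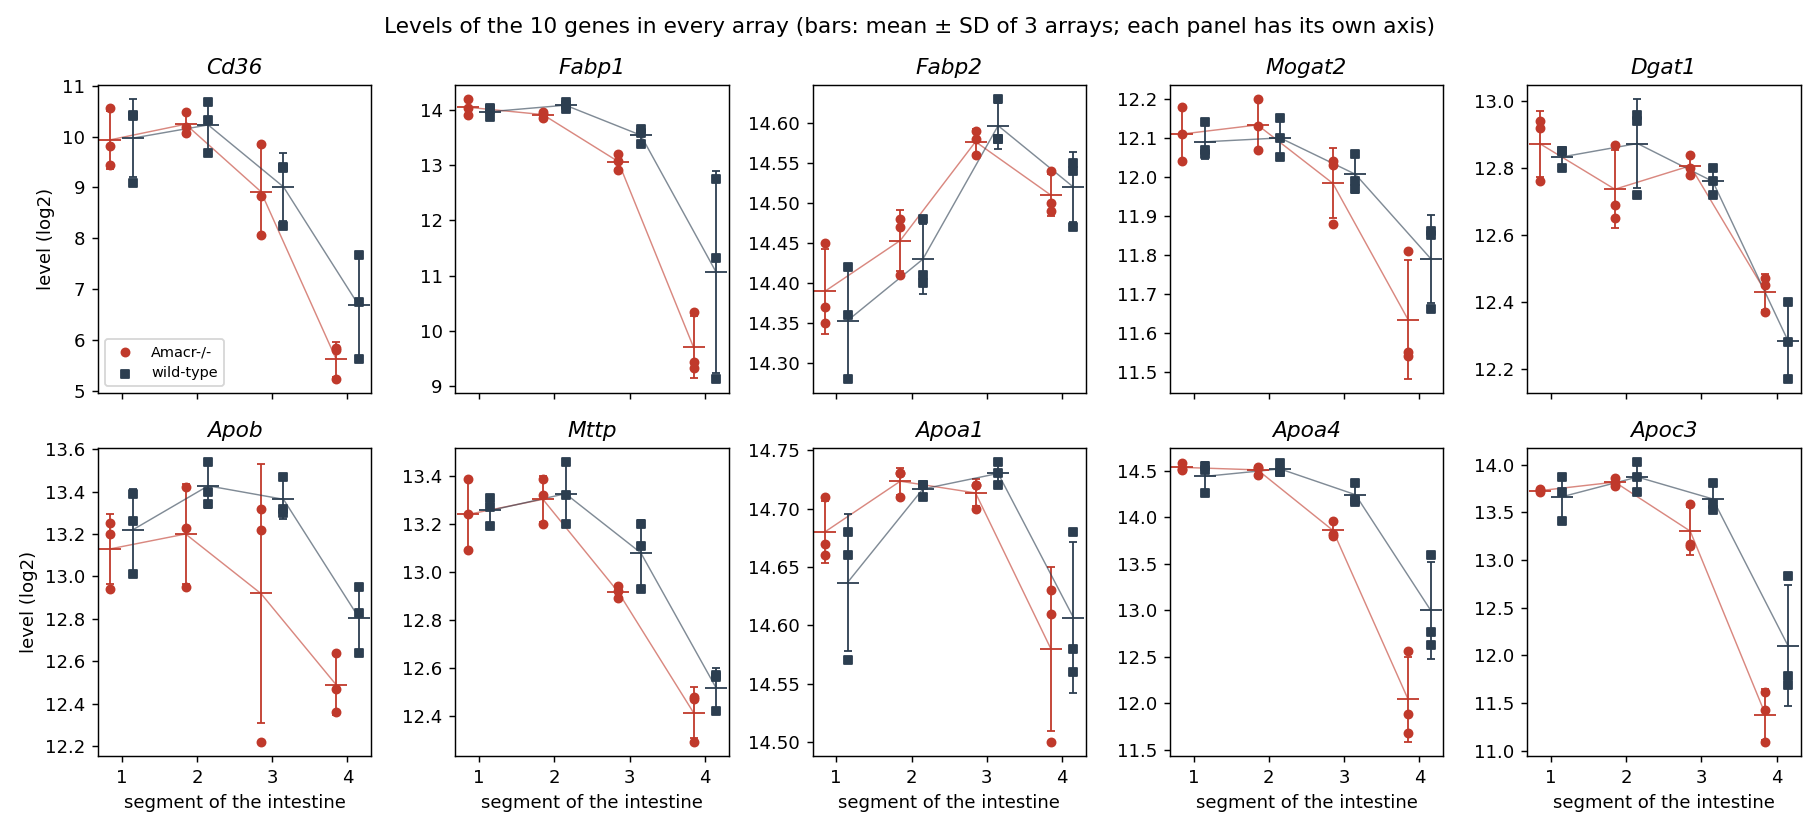
Level of each of the 10 genes (log2, vertical axis, own scale per panel) in segments 1 to 4 (horizontal axis), with 3 Amacr-/- arrays (circles, left) and 3 wild-type arrays (squares, right) per segment and bars for the mean ± SD. In every panel but that of Fabp2 the mean of segment 4 is the lowest in both genotypes, while Fabp2 spans only 14.28 to 14.63 and Apoa1 only 14.50 to 14.74 over all arrays.

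Markers of some cell types, epithelium among them, also differed between segments 4 and 1. The shares of all genes were 15.4% higher and 14.9% lower in Amacr-/- mice, and 10% higher and 13.6% lower in wild-type mice. Of 8 measured markers of proliferating cells, 8 rose in segment 4 against segment 1 in Amacr-/- mice and 5 in wild-type mice. Relative to the mean of the 24 arrays, their mean was 0.84 in segment 4 and -0.61 in segment 1 of Amacr-/- mice, and 0.84 in segment 4 and -0.09 in segment 1 of wild-type mice. Of 11 measured markers of epithelium, 8 rose and 1 fell in Amacr-/- mice, and 6 rose and 1 fell in wild-type mice. On the same scale their mean was 0.24 in segment 4 and -0.18 in segment 1 of Amacr-/- mice, and 0.17 in segment 4 and -0.16 in segment 1 of wild-type mice. The markers of vessel endothelium held 0 calls among 9 in either genotype. Those of fat cells held 0 calls among 7, with a mean of -0.05 in segment 4 and -0.93 in segment 1 of Amacr-/- mice, and 0.58 in segment 4 and -1.03 in segment 1 of wild-type mice. Those of exocrine pancreas held 0 calls among 8 in Amacr-/- mice (-0.31 in segment 4, 0.46 in segment 1), and 1 fell in wild-type mice (-0.28 in segment 4, 0.99 in segment 1). The part of these markers in the differences of the 10 genes was not tested, and in scraped tissue fewer cells of a type and less RNA per cell cannot be told apart.

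Among the genes of uptake and binding, Fabp1 and Fabp2 encode related proteins that carry fatty acids in the enterocyte cytosol. Fabp1 (liver type) lies on the plus strand at chr6:71199879-71205034 and Fabp2 (intestinal type) at chr3:122895072-122899506 of GRCm38.p6. Both belong to the fatty acid binding protein family, and Fabp1 fell towards segment 4 where Fabp2 did not, so the RefSeq promoter windows of this pair are shown, from 250 bases before to 50 bases after the start of the gene. The Fabp1 window is chr6:71199629-71199928 and the Fabp2 window chr3:122894822-122895121, both on the plus strand and written 5′ to 3′.
Fabp1: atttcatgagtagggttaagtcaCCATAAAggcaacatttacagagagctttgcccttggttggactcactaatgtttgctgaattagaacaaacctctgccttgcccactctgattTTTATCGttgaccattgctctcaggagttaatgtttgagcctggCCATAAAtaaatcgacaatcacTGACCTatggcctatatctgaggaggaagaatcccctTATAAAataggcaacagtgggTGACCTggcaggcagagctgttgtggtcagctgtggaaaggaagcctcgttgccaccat
Fabp2: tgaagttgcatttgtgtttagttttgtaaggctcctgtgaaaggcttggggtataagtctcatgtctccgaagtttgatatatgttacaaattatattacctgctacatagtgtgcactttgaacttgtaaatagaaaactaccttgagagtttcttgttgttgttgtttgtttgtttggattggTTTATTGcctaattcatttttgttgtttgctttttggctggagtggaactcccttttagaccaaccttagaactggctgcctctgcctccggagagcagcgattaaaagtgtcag
Capitals mark matches, on either strand, to the letters AGGTCA (bound by nuclear receptors), TTTATNG (bound by the CDX factors of intestinal cells) and TATAAA (the TATA box). The Fabp1 window held AGGTCA on the minus strand 67 and 9 bases before the start, TTTATNG starting 227, 133 and 89 bases before it, and TATAAA 30 bases before it. The Fabp2 window held TTTATNG 65 bases before the start and neither of the others. AGGTCA occurred in 16.3%, TTTATNG in 10.9% and TATAAA in 13.6% of 32851 windows of the same 300 bases. The HNF4A motif CAAAGTCCA was in 0.475%, the palindromic HNF1 motif in 0.00913% and the cyclic AMP response motif TGACGTCA in 1.79% of all windows. The letters AGATAA, which Gata4 and related factors bind, were in 11.2% of them. None of these 4 was in the 7 windows found for the 10 genes. Only these letters were searched, and variants of the motifs were not. TATAAA also lay in the Apob window and overlapped a TTTATNG match there. Such matches describe letters and do not show binding.

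Fabp1 had levels of 14.20, 13.91 and 14.04 in segment 1, 13.86, 13.92 and 13.97 in segment 2, 13.20, 13.08 and 12.92 in segment 3 and 9.33, 9.43 and 10.35 in segment 4 of Amacr-/- mice. In wild-type mice they were 13.87, 14.03 and 14.01 in segment 1, 14.02, 14.15 and 14.09 in segment 2, 13.39, 13.66 and 13.58 in segment 3 and 9.12, 11.32 and 12.75 in segment 4. All 3 arrays of segment 4 lay below all arrays of the other segments in both genotypes, and the wild-type arrays of segment 4 were far apart. In segments 1 and 2 the values lay 0.47 to 0.87 below the highest value on their array. Whether the signal of Fabp1 saturates there was not tested. Fabp1 fell by 4.35 in Amacr-/- mice (SE 0.51, 20.3-fold, adjusted p = 1.82e-06), with 9.70 ± 0.56 in segment 4 and 14.05 ± 0.15 in segment 1 (SD, n = 3). In wild-type mice it fell by 2.91 (SE 0.51, 7.50-fold, adjusted p = 0.000247), with 11.06 ± 1.83 in segment 4 and 13.97 ± 0.09 in segment 1. The wild-type change was -1.94 without replicate 1 and -3.75 without replicate 3 of segment 4, and it passed the threshold each time.

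Fabp2 lay at 14.45, 14.35 and 14.37 in segment 1, 14.41, 14.48 and 14.47 in segment 2, 14.59, 14.58 and 14.56 in segment 3 and 14.49, 14.50 and 14.54 in segment 4 of Amacr-/- mice. In wild-type mice it lay at 14.28, 14.36 and 14.42 in segment 1, 14.48, 14.40 and 14.41 in segment 2, 14.63, 14.58 and 14.58 in segment 3 and 14.47, 14.55 and 14.54 in segment 4. Segment 3 held the highest values in both genotypes, and segment 4 lay wholly above segment 1. The difference between segments 4 and 1 was 0.12 in Amacr-/- mice (SE 0.06, adjusted p = 0.121), and Fabp2 rose by 0.17 in wild-type mice (SE 0.06, adjusted p = 0.0369). That rise was 0.13 (adjusted p = 0.14) after median centring and 0.03 (adjusted p = 0.784) after renewed quantile normalization, and was also lost without wild-type replicate 1 (adjusted p = 0.149) or 2 (0.0782) of segment 1 or replicate 2 (0.122) or 3 (0.0993) of segment 4. All Fabp2 values lay within 0.34 of the highest value on their array. Whether the signal saturates there was not tested.

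Cd36 (chr5:17781690-17888959) encodes a membrane receptor that binds long-chain fatty acids and lipoproteins. Its levels in Amacr-/- mice were 10.56, 9.44 and 9.81 in segment 1, 10.18, 10.07 and 10.48 in segment 2, 8.83, 8.07 and 9.85 in segment 3 and 5.22, 5.80 and 5.83 in segment 4. Those in wild-type mice were 9.08, 10.41 and 10.42 in segment 1, 9.68, 10.32 and 10.69 in segment 2, 8.24, 9.41 and 9.38 in segment 3 and 5.63, 6.74 and 7.66 in segment 4. The replicates of a group spread widely, yet segment 4 lay below every other array of its genotype. Cd36 fell by 4.32 in Amacr-/- mice (SE 0.50, 19.97-fold, adjusted p = 1.62e-06) and fell by 3.29 in wild-type mice (SE 0.50, 9.80-fold, adjusted p = 5.45e-05). Cd36 is also made by fat cells, and 9.85, the highest value in Amacr-/- segment 3, came from the array rich in fat cell markers. With that array left out, Cd36 in Amacr-/- mice was lower in segment 4 than in segment 3 by a change of -2.83 (adjusted p = 0.00478), against -3.30 with it (adjusted p = 0.000498).

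The genes of re-esterification followed with smaller steps. Mogat2 (chr7:99219084-99238611) encodes the monoacylglycerol acyltransferase that starts the main intestinal route back to triglyceride. It lay at 11.55, 11.54 and 11.81 in segment 4 and 12.11, 12.04 and 12.18 in segment 1 of Amacr-/- mice, and at 11.66, 11.85 and 11.86 in segment 4 and 12.14, 12.06 and 12.07 in segment 1 of wild-type mice. Segments 4 and 1 did not overlap in either genotype. Mogat2 fell by 0.48 in Amacr-/- mice (SE 0.08, adjusted p = 0.000112) and fell by 0.30 in wild-type mice (SE 0.08, adjusted p = 0.00862). The wild-type call was lost without replicate 1 of segment 4 (change -0.24, adjusted p = 0.0617).

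Dgat1 (chr15:76502012-76512021) encodes a diacylglycerol acyltransferase, which adds the last fatty acid of a triglyceride. It lay at 12.37, 12.45 and 12.47 in segment 4 and 12.76, 12.94 and 12.92 in segment 1 of Amacr-/- mice. In wild-type mice it lay at 12.17, 12.40 and 12.28 in segment 4 and 12.80, 12.85 and 12.85 in segment 1. All values of segment 4 were below all others of their genotype, and segments 1 to 3 overlapped. Dgat1 fell by 0.44 in Amacr-/- mice (SE 0.08, adjusted p = 0.000241) and fell by 0.55 in wild-type mice (SE 0.08, adjusted p = 3.09e-05).

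The assembly genes are Apob, the structural protein of the particle (chr12:7977629-8016839), and Mttp, which lipidates it (chr3:138089855-138143418). Mttp had 12.29, 12.47 and 12.48 in segment 4 and 13.39, 13.09 and 13.24 in segment 1 of Amacr-/- mice, and 12.42, 12.57 and 12.56 in segment 4 and 13.31, 13.27 and 13.19 in segment 1 of wild-type mice. Its arrays of segment 4 lay clear of those of segment 1 in both genotypes. Mttp fell by 0.83 in Amacr-/- mice (SE 0.09, 1.77-fold, adjusted p = 8.83e-07) and fell by 0.74 in wild-type mice (SE 0.09, 1.67-fold, adjusted p = 4.86e-06).

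Apob had 12.94, 13.20 and 13.25 in segment 1, 13.23, 13.42 and 12.95 in segment 2, 13.32, 13.22 and 12.22 in segment 3 and 12.64, 12.36 and 12.47 in segment 4 of Amacr-/- mice. In wild-type mice it had 13.01, 13.39 and 13.26 in segment 1, 13.34, 13.54 and 13.40 in segment 2, 13.30, 13.47 and 13.32 in segment 3 and 12.64, 12.83 and 12.95 in segment 4. The value of 12.22, the lowest of all 24, came from Amacr-/- replicate 3 of segment 3, the array rich in fat cell markers. Apob fell by 0.64 in Amacr-/- mice (SE 0.20, adjusted p = 0.0197), a call lost without replicate 2 or 3 of segment 1 or replicate 2 of segment 4 (adjusted p = 0.0633, 0.0702 and 0.0766). The wild-type difference was -0.41 (SE 0.20, adjusted p = 0.155), and it was -0.52 and passed with the 6 arrays high in other tissue markers left out (adjusted p = 0.0061) and -0.49 and passed with array weights (adjusted p = 0.00945).

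The surface apolipoproteins Apoa1, Apoc3 and Apoa4 lie side by side on chromosome 9, at chr9:46228630-46230469, chr9:46233050-46235636 and chr9:46240844-46243458. Apoa1 is also the main protein of high-density lipoprotein, Apoc3 inhibits lipoprotein lipase, and Apoa4 is made in mice largely by the intestine. Within this cluster Apoa4 and Apoc3 fell steeply towards segment 4 and Apoa1 did not pass the threshold.

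Apoa4 had 14.58, 14.51 and 14.52 in segment 1, 14.53, 14.46 and 14.54 in segment 2, 13.96, 13.82 and 13.80 in segment 3 and 11.89, 11.68 and 12.56 in segment 4 of Amacr-/- mice. Wild-type mice had 14.26, 14.51 and 14.55 in segment 1, 14.49, 14.58 and 14.49 in segment 2, 14.19, 14.37 and 14.17 in segment 3 and 12.63, 12.77 and 13.60 in segment 4. Segments 1 and 2 overlapped within 0.31 of the highest value on their array, and segment 4 lay lowest in both genotypes. Whether the signal of Apoa4 saturates there was not tested. Apoa4 fell by 2.49 in Amacr-/- mice (SE 0.20, 5.63-fold, adjusted p = 1.27e-08) and fell by 1.44 in wild-type mice (SE 0.20, 2.71-fold, adjusted p = 1.67e-05).

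Apoc3 had 13.73, 13.71 and 13.74 in segment 1, 13.81, 13.78 and 13.86 in segment 2, 13.59, 13.15 and 13.17 in segment 3 and 11.62, 11.09 and 11.43 in segment 4 of Amacr-/- mice. Wild-type mice had 13.41, 13.71 and 13.87 in segment 1, 13.71, 14.03 and 13.87 in segment 2, 13.52, 13.81 and 13.59 in segment 3 and 11.78, 11.69 and 12.83 in segment 4. Its arrays of segment 4 were below all others of their genotype, with wild-type replicate 3 nearest to them. Apoc3 fell by 2.35 in Amacr-/- mice (SE 0.22, 5.09-fold, adjusted p = 8.23e-08) and fell by 1.56 in wild-type mice (SE 0.22, 2.96-fold, adjusted p = 1.70e-05).

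Apoa1 lay at 14.61, 14.50 and 14.63 in segment 4 and 14.67, 14.66 and 14.71 in segment 1 of Amacr-/- mice, and at 14.58, 14.56 and 14.68 in segment 4 and 14.57, 14.68 and 14.66 in segment 1 of wild-type mice. The groups did not overlap in Amacr-/- mice and did overlap in wild-type mice. The difference was -0.10 in Amacr-/- mice (SE 0.06, 95% interval -0.22 to 0.02, adjusted p = 0.198) and -0.03 in wild-type mice (SE 0.06, 95% interval -0.15 to 0.09, adjusted p = 0.759). The Amacr-/- difference was -0.16 and passed (adjusted p = 0.0217) after renewed quantile normalization. Apoa1 was within 0.19 of the highest value on every array, and whether its signal saturates there was not tested.

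**Figure D2:**
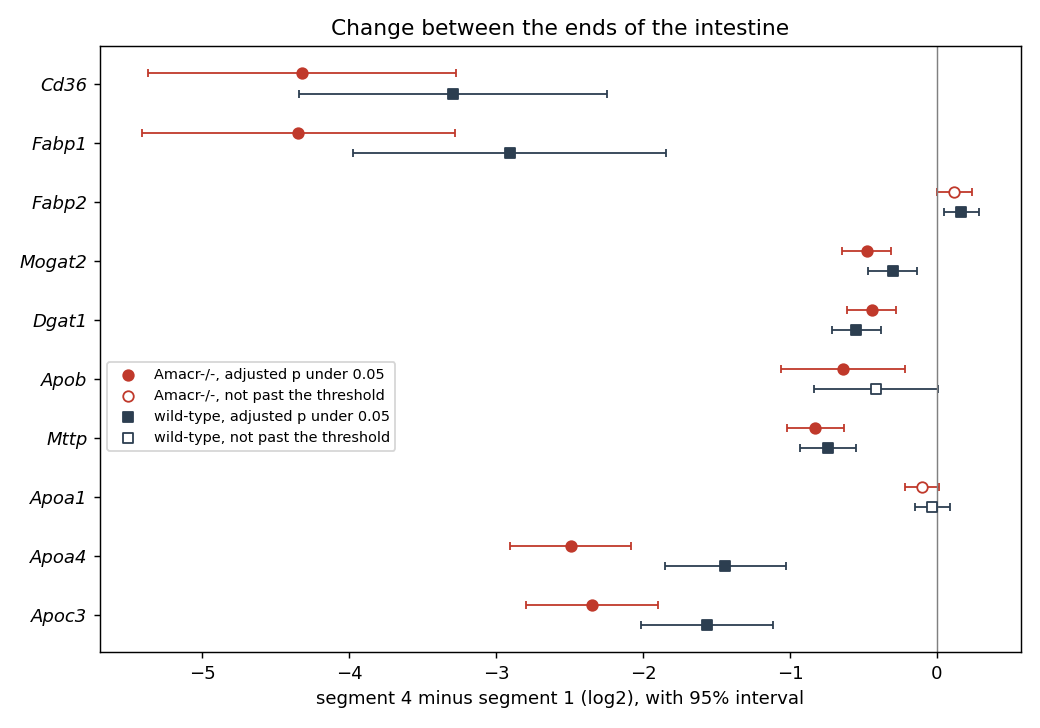
Difference between segment 4 and segment 1 (log2, horizontal axis) for each gene, with 95% intervals, in Amacr-/- mice (circles) and wild-type mice (squares); filled symbols passed an adjusted p under 0.05. Cd36 and Fabp1 lie farthest left at -4.32 and -4.35 in Amacr-/- mice, and Fabp2 is the gene right of 0 in both genotypes.

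Most of the decline lay between segments 3 and 4. From segment 1 to segment 2, 0 of the 10 genes passed in either genotype by limma. Of all genes, 3.62% passed in Amacr-/- and 0.884% in wild-type mice. At an unadjusted p under 0.05 there were also 0 of the 10 in either genotype. Of all genes, 16% were under it in Amacr-/- and 11.1% in wild-type mice. From segment 2 to segment 3, 1 gene fell in Amacr-/- mice, where 3.59% of all genes fell. It was Mttp (change -0.39, SE 0.09, adjusted p = 0.0154), and the call was lost without replicate 1 (adjusted p = 0.0558) or 3 (0.0914) of segment 2 or replicate 2 of segment 3 (0.0548). Leaving out the 6 arrays high in other tissue markers removed replicates 1 and 3 of segment 2 and replicate 3 of segment 3 in this comparison. The change of Mttp was then -0.30, but only replicate 2 of segment 2 remained, too little to test the call. In wild-type mice 0 passed by limma, where 2.06% of all genes passed. At an unadjusted p under 0.05 there were 5 of the 10 genes in Amacr-/- mice, against 18.5% of all genes. In wild-type mice there were 3, against 14.2% of all genes. From segment 3 to segment 4, 7 of the 10 genes fell in Amacr-/- mice, where 2.21% of all genes fell, and 6 in wild-type mice, where 2.56% of all genes fell.

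The genes called in the last step were Cd36, Fabp1, Dgat1, Mttp, Apoa4 and Apoc3 in both genotypes, and Mogat2 in Amacr-/- mice. Mogat2 differed by -0.22 in wild-type mice (adjusted p = 0.138), and whether the genotypes differed in this step was not tested. In a fit of only the arrays compared, the wild-type calls of Cd36, Fabp1, Dgat1, Apoa4 and Apoc3 were lost (adjusted p = 0.0799, 0.178, 0.0536, 0.0572 and 0.0536), as were the Amacr-/- calls of Mogat2 (0.18) and Dgat1 (0.0595). Fabp1 fell by 3.36 in Amacr-/- mice (SE 0.51, adjusted p = 0.000487), and this was 77.4% of its difference between the ends. In wild-type mice Fabp1 fell by 2.48 in this step (SE 0.51, adjusted p = 0.0061), or 85.3% of that difference, and fell by 1.51 (adjusted p = 0.00814) without replicate 1 of segment 4. Apoa4 fell by 1.82 in Amacr-/- mice (SE 0.20, adjusted p = 2.21e-05) and fell by 1.24 in wild-type mice (SE 0.20, adjusted p = 0.000705), which was 72.9% of the whole in Amacr-/- mice and 86.3% in wild-type mice. Apoc3 fell by 1.92 in Amacr-/- mice (adjusted p = 3.01e-05) and fell by 1.54 in wild-type mice (adjusted p = 0.000192), or 82.0% of the whole in Amacr-/- mice and 98.5% in wild-type mice. Single arrays decided some of these calls. Cd36 fell by 2.33 in wild-type mice (SE 0.50, adjusted p = 0.00903), lost without replicate 2 of segment 3 (adjusted p = 0.0566) or replicate 1 of segment 4 (0.0811). Mogat2 fell by 0.35 in Amacr-/- mice (SE 0.08, adjusted p = 0.0154), lost without replicate 2 (adjusted p = 0.061) or 3 (0.0804) of segment 3 or replicate 1 (0.0877) or 2 (0.0936) of segment 4. Dgat1 fell by 0.38 in Amacr-/- mice (adjusted p = 0.009), lost without replicate 1 of segment 4 (adjusted p = 0.0541). Apob was not called in this step (change -0.43 in Amacr-/- mice, adjusted p = 0.324), but without the Amacr-/- array rich in fat cell markers it fell by 0.78 (adjusted p = 0.00432). In wild-type mice its change was -0.56 (adjusted p = 0.132), and it passed with array weights (adjusted p = 0.0119) and with the 6 arrays high in other tissue markers left out (adjusted p = 0.00895).

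Over the 8 group means, 8 of the genes shared a profile. Between pairs of Cd36, Fabp1, Mogat2, Dgat1, Apob, Mttp, Apoa4 and Apoc3, Pearson's r ranged from 0.76 to 0.997 over 28 pairs, with a median of 0.97. Apoa1 had r of 0.74 to 0.84 with these, and Fabp2 r of -0.52 to 0.16 with the other 9. The 8 means come from the same arrays for every gene, so these values only describe the profiles. In ranking the nearest profiles, here and for each gene, clone, locus and predicted-gene names were passed over. The mean of the 10 is of centred, unscaled values, so genes with wide ranges weigh most in it. The genes outside the list with the profile nearest to that mean were Plpp1 (r = 0.995), Abr (0.994), Hsd17b6 (0.989), Lct (0.988) and Ugt2a3 (0.988). Next came Stat6, Ppargc1a, Ace, Cyb5a and Pxdc1 (all 0.987 to 0.988). Lct is lactase of the brush border, and Ace is the angiotensin-converting enzyme, also a brush border peptidase.

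Each gene had its own nearest profiles, all over 8 group means. Cd36 was nearest to Ace (r = 0.994), Reep3 and Ugt2a3, and Fabp1 to Hsd17b6 (0.992), Abr and Plpp1. Mogat2 was nearest to Gskip (0.992), Reep3 and Hsd17b6, and Dgat1 to Sart1 (0.986), Tsc22d3 and Septin9. Mttp was nearest to Snx20 (0.999), Tmem135 and Sec24d, the last a coat protein of the vesicles that leave the endoplasmic reticulum. Apob was nearest to Gsdmd (0.980), Smpd2 and Pklr, the last the pyruvate kinase of liver and red cells. Apoa4 was nearest to Hsd17b6 (0.993), Sult1b1 and Lct, and Apoc3 to Abr (0.997), Lct and Plpp1. Apoa1 was nearest to Pla2g12b (0.987), Cerk and Stxbp5, and Fabp2 to Cux1 (0.981), Bcl6b and Xpnpep1.

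Genes of the wider pathway also changed between the ends. Of 75 further genes listed, 65 were measured. Of these, 33 fell and 6 rose in segment 4 against segment 1 of Amacr-/- mice, and 32 fell and 5 rose in wild-type mice. The shares of all genes were 14.9% lower and 15.4% higher in Amacr-/- mice, and 13.6% lower and 10% higher in wild-type mice. Shared by both were 33 genes, all with the same direction, which is 84.6% of those called in Amacr-/- and 89.2% of those called in wild-type mice. The median difference of the 65 was -0.48 in Amacr-/- mice and -0.39 in wild-type mice, against -0.01 and 0.03 over all genes.

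In fatty acid uptake and activation, 5 of 11 measured genes fell and 0 rose in each genotype. Scarb1, a lipoprotein and lipid receptor, fell by 4.74 in Amacr-/- mice (SE 0.34, adjusted p = 3.97e-09) and fell by 3.81 in wild-type mice (SE 0.34, adjusted p = 1.02e-07). The acyl-CoA synthetase gene Slc27a2 fell by 3.89 in Amacr-/- mice and fell by 3.27 in wild-type mice (SE 0.28 each). Acsl6, another acyl-CoA synthetase gene, fell by 2.90 in Amacr-/- mice and fell by 2.00 in wild-type mice (SE 0.40 each). Triglyceride synthesis held 5 falls and 1 rise of 10 in each genotype. Dgat2, the other diacylglycerol acyltransferase, fell by 2.14 in Amacr-/- mice (SE 0.23, adjusted p = 5.5e-07) and fell by 0.99 in wild-type mice (SE 0.23, adjusted p = 0.00296). Agpat3, an acyltransferase gene, fell by 1.95 in Amacr-/- mice and fell by 1.77 in wild-type mice (SE 0.19 each). The genes that rose were Gpat4 in Amacr-/- mice (by 0.48) and Gpam in wild-type mice (by 0.49), both of glycerol-3-phosphate acyltransferases.

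Of 18 genes of chylomicron assembly and export, 12 fell and 0 rose in each genotype. Sec24d fell by 1.88 in Amacr-/- mice (SE 0.13, adjusted p = 3.21e-09) and fell by 1.46 in wild-type mice (SE 0.13, adjusted p = 1.19e-07). Creb3l3, a transcription factor of lipid metabolism, fell by 1.11 in Amacr-/- mice and fell by 0.93 in wild-type mice (SE 0.20 each). Surf4, a cargo receptor of lipoproteins, fell by 0.93 in Amacr-/- mice and fell by 0.83 in wild-type mice (SE 0.10 each). Among other surface apolipoproteins 1 of 5 was called, close to the share of all genes that fell. It was Apoa2, which fell by 1.14 in Amacr-/- mice and fell by 1.02 in wild-type mice (SE 0.14 each). Among 8 lipid droplet genes 6 fell in Amacr-/- mice and 4 in wild-type mice, among them Cidec, which fell by 2.18 in Amacr-/- mice and fell by 1.71 in wild-type mice (SE 0.31 each). The lysosomal lipase gene Lipa fell by 1.89 in Amacr-/- mice and fell by 1.47 in wild-type mice (SE 0.21 each).

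Transcription factors and nuclear receptors moved both ways. Of 13 measured, 5 rose and 4 fell in Amacr-/- mice, and 4 rose and 5 fell in wild-type mice. Nr1h4, the bile acid receptor FXR, rose by 2.77 in Amacr-/- mice (SE 0.23, adjusted p = 2.57e-08) and by 2.03 in wild-type mice (SE 0.23, adjusted p = 1.83e-06). Pparg fell by 2.01 in Amacr-/- mice and fell by 1.66 in wild-type mice (SE 0.28 each). Gata4, a factor of the proximal small intestine, fell by 1.80 in Amacr-/- mice and fell by 1.64 in wild-type mice (SE 0.12 each). These lists were drawn up with earlier results of these arrays known.

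Between the genotypes, none of the 10 genes passed the threshold in any segment, for the mean of the 4 segments or for the interaction of genotype and segment (limma, Benjamini-Hochberg). Of all genes, 0.111%, 0.0721%, 0.0262% and 0.0655% passed in segments 1 to 4, 0.0262% for the mean and 0% for the interaction. At an unadjusted p under 0.05 there were 0, 0, 1 and 4 of the 10 genes in segments 1 to 4, 2 for the mean and 1 for the interaction. Of all genes, 11.4%, 6.81%, 8.14% and 4.9% were under it in segments 1 to 4, 7.79% for the mean and 5.94% for the interaction. The median difference of the 10 genes, Amacr-/- minus wild-type, was 0.04, -0.02, -0.13 and -0.24 in segments 1 to 4, against 0.01, 0.01, -0.02 and -0.00 over all genes. Values below 0 were held by 3, 6, 9 and 9 of the 10. With 1 array left out at a time, 7 to 9 were below 0 in segment 3 and in segment 4. The 65 further genes of the pathway held 0 calls by limma in each of these comparisons. At an unadjusted p under 0.05 there were 7, 2, 9 and 4 of the 65 in segments 1 to 4, 9 for the mean and 5 for the interaction, to be read against the same shares of all genes.

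**Figure D3:**
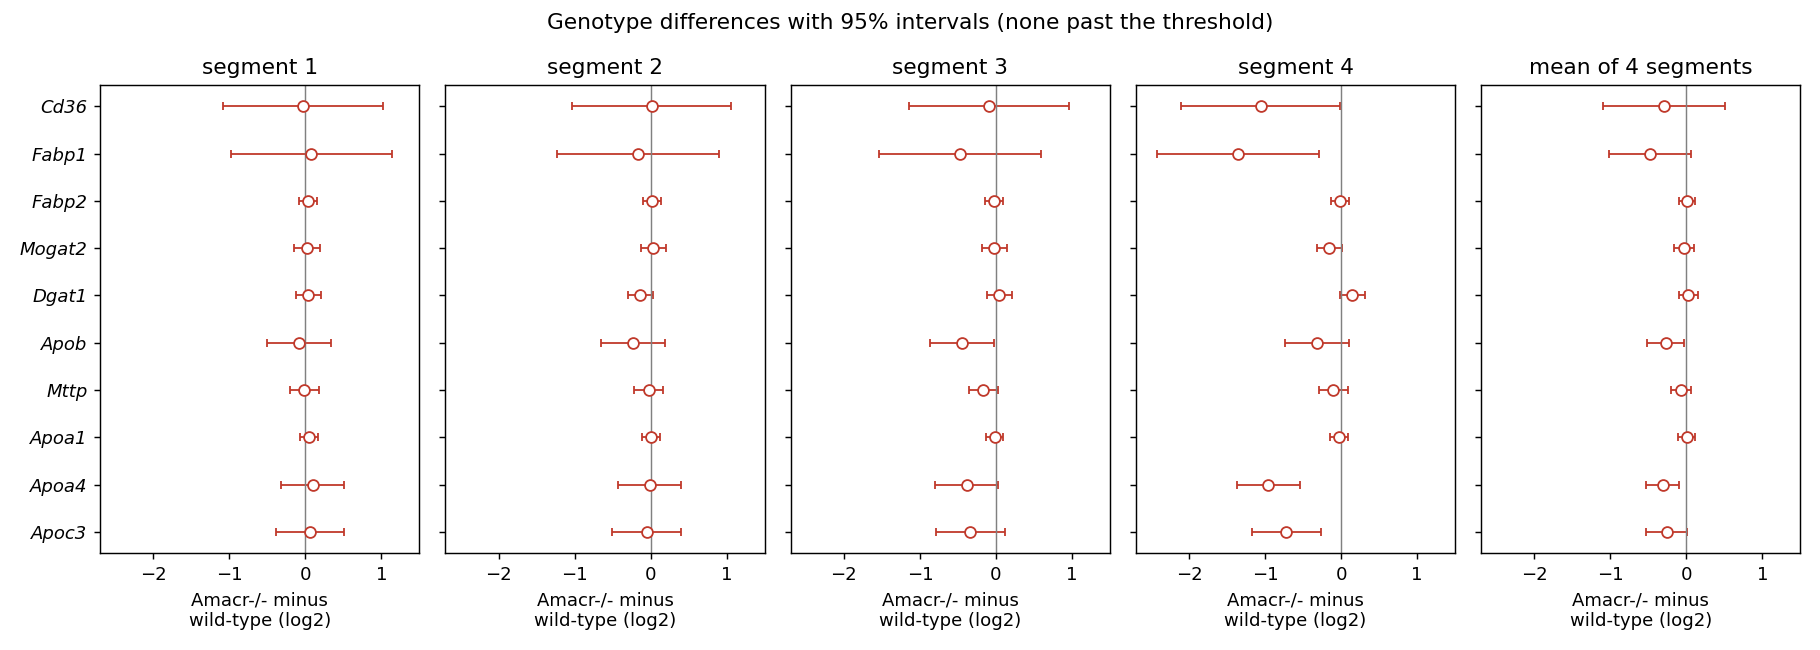
Difference of Amacr-/- minus wild-type (log2, horizontal axis) with 95% interval for each gene in segments 1 to 4 and for the mean of the 4 segments. Segment 4 shows the widest shift to the left, with Fabp1 at -1.36, Cd36 at -1.06, Apoa4 at -0.96 and Apoc3 at -0.72, none past the threshold.

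In segments 1 and 2 the differences of the 10 genes lay between -0.23 (Apob in segment 2) and 0.10 (Apoa4 in segment 1). In segment 1 the 95% interval was -0.15 to 0.19 for Mogat2 and -0.21 to 0.17 for Mttp, and wider for Cd36 (-1.08 to 1.02) and Fabp1 (-0.98 to 1.14). The Fabp1 arrays of segment 2 did not overlap, with 13.86, 13.92 and 13.97 in Amacr-/- mice below 14.02, 14.15 and 14.09 in wild-type mice, a difference of -0.17 (adjusted p = 0.989). Non-overlap with Amacr-/- lower held for 3.76% of all genes in that segment.

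In segment 3, 2 of the 10 genes did not overlap between the genotypes, both lower in Amacr-/- mice, where 6.89% of all genes showed that. Fabp1 had 13.20, 13.08 and 12.92 in Amacr-/- mice, against 13.39, 13.66 and 13.58 in wild-type mice, a difference of -0.48 (SE 0.51, adjusted p = 0.797). Apoa4 had 13.96, 13.82 and 13.80 in Amacr-/- mice, against 14.19, 14.37 and 14.17 in wild-type mice, a difference of -0.38 (SE 0.20, 95% interval -0.80 to 0.03, adjusted p = 0.624). Apoc3 differed by -0.34 (SE 0.22, adjusted p = 0.67), with overlap at 13.59 in Amacr-/- replicate 1. Apob differed by -0.44 (SE 0.20, adjusted p = 0.594), with 12.22 in the Amacr-/- array rich in fat cell markers and overlap in the other arrays, and without that array the difference was -0.09 (adjusted p = 0.952). In the same segment the ileal gene Slc10a2 was called higher in Amacr-/- mice, by 1.65 (adjusted p = 0.00472). It had 8.39, 8.86 and 8.88 in Amacr-/- mice, against 7.58, 6.90 and 6.69 in wild-type mice. Fabp6, also ileal, had 13.66, 13.68 and 13.60 in Amacr-/- mice, against 12.71, 12.12 and 11.79 in wild-type mice. The difference of 1.44 did not pass (adjusted p = 0.383). Whether the pieces of segment 3 were cut at the same place in both genotypes was not tested.

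In segment 4, 2 of the 10 genes did not overlap, again both lower in Amacr-/- mice, where 4.88% of all genes showed that. Apoa4 had 11.89, 11.68 and 12.56 in Amacr-/- mice, against 12.63, 12.77 and 13.60 in wild-type mice. The difference was -0.96 (SE 0.20, 95% interval -1.37 to -0.54, 1.94-fold, adjusted p = 0.0982). It was -1.22 and passed without Amacr-/- replicate 3 (adjusted p = 0.00858), and -1.14 and passed without wild-type replicate 1 (adjusted p = 0.0338). With array weights it was -0.93 and passed (adjusted p = 0.00807). Without wild-type replicate 3 it was -0.66 and did not pass (adjusted p = 0.296).

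Apoc3 had 11.62, 11.09 and 11.43 in Amacr-/- mice of segment 4, against 11.78, 11.69 and 12.83 in wild-type mice. The groups did not overlap, though the highest Amacr-/- array lay close to the lower wild-type arrays, and wild-type replicate 3 stood well above the rest. The difference was -0.72 (SE 0.22, 95% interval -1.17 to -0.27, adjusted p = 0.514), and -0.36 without wild-type replicate 3 (adjusted p = 0.963). Fabp1 had 9.33, 9.43 and 10.35 in Amacr-/- mice, against 9.12, 11.32 and 12.75 in wild-type mice, a difference of -1.36 (SE 0.51, 95% interval -2.42 to -0.30, adjusted p = 0.802). The lowest and the highest value of all 6 were both wild-type arrays. Without replicate 1 of wild-type the difference was -2.33 and passed (adjusted p = 0.000804), and without replicate 3 it was -0.52 (adjusted p = 1.00). Cd36 had 5.22, 5.80 and 5.83 in Amacr-/- mice, against 5.63, 6.74 and 7.66 in wild-type mice, a difference of -1.06 (SE 0.50, 95% interval -2.11 to -0.01, adjusted p = 1.00), and -0.57 without wild-type replicate 3 (adjusted p = 1.00). These 2 genes overlapped through wild-type replicate 1, and leaving it out moves both differences away from 0. The mean of the 7 measured fat cell markers, of 9 listed, was also lower in Amacr-/- segment 4, at -0.83 to 0.36 relative to all arrays, against 0.49 to 0.74 in wild-type segment 4, and its part in the difference of Cd36 was not tested.

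The other 6 genes differed by less in segment 4, from -0.32 for Apob (SE 0.20, 95% interval -0.74 to 0.10) to 0.15 for Dgat1 (SE 0.08, 95% interval -0.02 to 0.31). Dgat1 was the gene above 0 in segment 4. Mogat2 and Mttp differed by -0.16 (95% interval -0.32 to 0.01) and -0.10 (95% interval -0.29 to 0.09). Fabp2 and Apoa1 differed by -0.01 and -0.03, with intervals of -0.13 to 0.11 and -0.14 to 0.09.

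The wild-type arrays of segment 4 were far apart for some of the genes. Fabp1 differed 12.4-fold between the highest and the lowest of them and Cd36 4.08-fold, against 2.03-fold and 1.53-fold within the Amacr-/- group. The standard deviation of 4 of the 10 genes lay over the 95th percentile of all genes in wild-type segment 4, and that of 3 in Amacr-/- segment 4. Wild-type replicate 3 was highest for Cd36, Fabp1, Apoa4 and Apoc3, and replicate 1 lowest for Cd36, Fabp1 and Apoa4. In the same arrays Gata4 had 6.01, 6.34 and 6.24 in Amacr-/- mice, against 6.18, 6.45 and 6.79 in wild-type mice, with wild-type replicate 3 the highest and wild-type replicate 1 the lowest of the wild-type arrays. The ileal gene Fabp6 had 14.63, 14.69 and 14.70 in Amacr-/- mice, against 14.66, 14.50 and 14.32 in wild-type mice, with wild-type replicate 3 the lowest. These Fabp6 values lay close to the top of the scale. Slc10a2, also ileal, did not share that order. It had 11.57, 11.72 and 11.86 in Amacr-/- mice, against 11.53, 11.13 and 11.40 in wild-type mice, with wild-type replicate 2 the lowest. The part of position within segment 4 in the genotype difference of these genes was not tested.

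**Figure D4:**
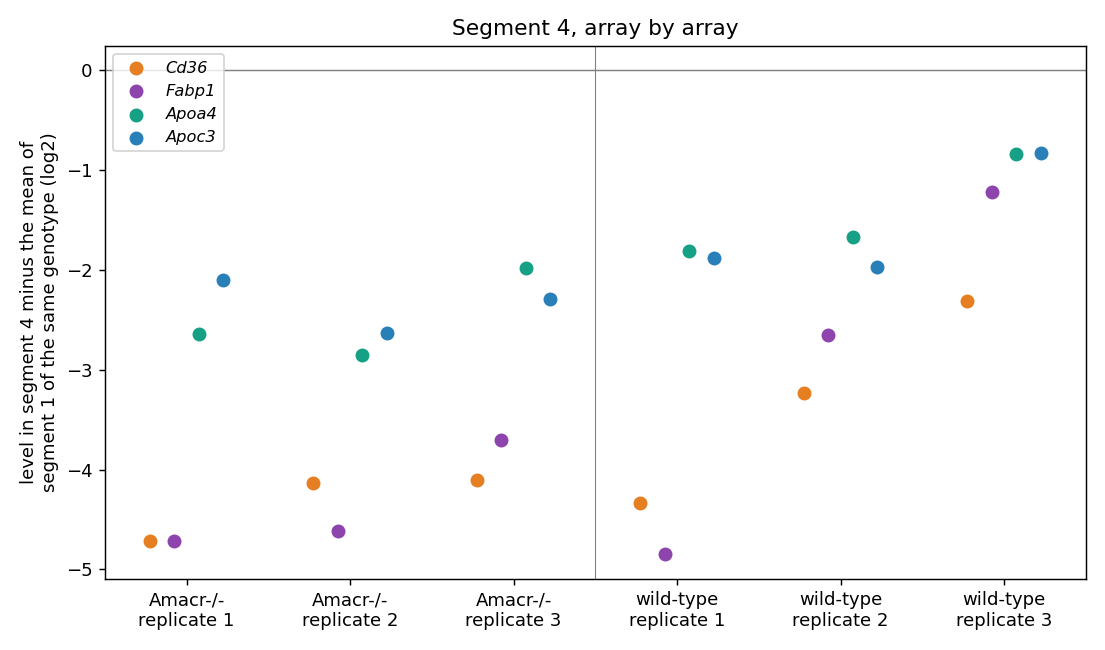
Level of Cd36, Fabp1, Apoa4 and Apoc3 in each array of segment 4 as the difference from the mean of segment 1 of the same genotype (log2, vertical axis), for 3 Amacr-/- arrays (left) and 3 wild-type arrays (right). All 24 points lie below 0, and among the wild-type arrays replicate 3 stands highest for each of the 4 genes.

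The decline from segment 1 to segment 4 was compared between the genotypes as a difference of differences. The change in Amacr-/- mice minus that in wild-type mice was -1.05 for Apoa4 (SE 0.28, 95% interval -1.64 to -0.47, adjusted p = 0.52) and -0.78 for Apoc3 (SE 0.30, 95% interval -1.42 to -0.15, adjusted p = 0.529), neither past the threshold. Fabp1 and Cd36 gave -1.44 (SE 0.72, adjusted p = 0.603) and -1.03 (SE 0.71, adjusted p = 0.698). The other 6 genes gave -0.23 (Apob) to 0.11 (Dgat1). Of all genes 0% passed this comparison, and 2 of the 10 had an unadjusted p under 0.05, as had 8.48% of all genes. Without wild-type replicate 3 of segment 4 the values were -0.75 for Apoa4, -0.42 for Apoc3, -0.60 for Fabp1 and -0.53 for Cd36. Leaving out wild-type replicate 1 of segment 4 moves the values of Apoa4, Fabp1 and Cd36 the other way, away from 0. The wild-type change itself was then -1.255 for Apoa4 (main -1.44), -1.935 for Fabp1 (main -2.91) and -2.77 for Cd36 (main -3.29). The interaction over all 4 segments gave its highest F for Apoa4 (5.78, adjusted p = 0.771).

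For the mean of the 4 segments, which takes a replicate number as 1 mouse, Apoa4 had 13.74 ± 0.12 in Amacr-/- mice and 14.05 ± 0.16 in wild-type mice (SD, n = 3), a difference of -0.31 (SE 0.09, 95% interval -0.53 to -0.09, adjusted p = 0.472). Apob had 12.94 ± 0.18 in Amacr-/- mice and 13.20 ± 0.12 in wild-type mice, a difference of -0.27 (SE 0.10, 95% interval -0.51 to -0.03, adjusted p = 0.59). Without Amacr-/- replicate 3, which holds the array rich in fat cell markers, the difference of Apob was -0.16 (adjusted p = 0.998). With array weights Fabp1, Apob and Apoa4 were called (adjusted p = 0.0349, 0.0361 and 0.0317), as were 707 genes in all.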

How the data were processed

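The RNA of 24 arrays (8 groups of 3) was analysed from the log2 expression values that the authors deposited, on which the submitters' processing notes name RMA with no version. The log base is not stated and was taken as 2 from the range of 2.92 to 14.74. The sources used here do not give the probes' genome build or any scan batch. Array medians were 6.06 to 6.16, and no value was filtered, scaled or imputed. Of 16556 probe sets, 64 were controls and 1222 had no gene name. The other 15270 gave 15267 genes. For the 3 genes with over 1 probe set, the probe set with the highest mean over all arrays was kept. Symbols and coordinates were taken from RefSeq for GRCm38.p6.

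The test was limma's lmFit and eBayes (version 3.58.1, R 4.3.3) on the 8 group means of all 24 arrays, with 95% intervals and Benjamini-Hochberg adjustment over 15267 genes at 0.05. The mean over the 4 segments used 1 value per replicate number. The fit was tested on simulated data. Groups come from the labels. The labels name biological replicates but do not say that a number is 1 mouse, so p-values measure the spread between these samples. Of 36 pairs of same-numbered arrays within a genotype 15 deviated together with r over 0.1 (median r 0.06). Of 72 pairs with other numbers within a genotype 18 did (median r -0.07). Across genotypes in the same segment, 2 of 12 same-numbered pairs did (median r -0.12), and 10 of 24 pairs with other numbers (median r 0.06). Pairs across genotypes cannot share a mouse, so these shares do not show whether a number marks 1 mouse. The main fit did not use the number as a block, so any pairing within a genotype is ignored in its comparisons of segments. The mean over the 4 segments does take a number as 1 mouse.

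The 10 genes and all gene lists were chosen with earlier results of these data known. The genes named beyond the 10 were up to 3 per list with the largest called change in segment 4 against segment 1, and those with the nearest profile by Pearson's r. The 2 acyltransferase genes that rose and Gata4, Fabp6 and Slc10a2 by array were named after their values were seen. Promoter windows of 7 of the 10 genes came from RefSeq. Alternatives covered scaling, a filter on dim genes, array weights, replicate blocks, fits of only the arrays compared, leaving out the 6 arrays with high levels of other tissues' markers, and leaving out each array.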

Additional observations from a re-analysis of the deposited data

How the results depend on the processing

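Over 10 genes and 15 comparisons, alternatives other than leaving out an array gave 1480 values, of which 1444 kept direction and side of the threshold, 16 lost a call and 20 gained one. Leaving out each array gave 1140 values, of which 1118 kept both, 18 lost a call and 4 gained one. No called gene changed direction, while 25 and 42 uncalled differences changed sign. Array weights gave 1 call among the 10 genes by genotype in segment 4 (main 0, with 127 genes called in all against 10) and 3 for the mean of the segments (main 0, with 707 genes against 4). In segment 3 against segment 2 of Amacr-/- mice (main 1), the filter on dim genes and array weights each gave 2. So did the replicate block across genotypes and the fit of only the arrays compared, and the replicate block within genotype gave 3. Leaving out the arrays high in other tissue markers kept only replicate 2 in segment 2 of Amacr-/- mice, so its count there is not given. In wild-type mice the replicate block within genotype gave 1 (main 0) for segment 3 against segment 2, and only the arrays compared gave 1 (main 6) for segment 4 against segment 3, with 215 genes against 687. The block moved no other count of the 10 genes by over 1.5 times. Over all genes, the block across genotypes gave 26, 25 and 16 by genotype in segments 1, 2 and 4 (main 17, 11 and 10) and 0 for the mean of the segments (main 4), for which the block within genotype gave 109. The block within genotype gave 481 in segment 3 against 2 of wild-type mice (main 314). The labels do not say whether the numbers pair the samples. Leaving out 1 array gave 0 to 2 calls by genotype in segment 4, 0 to 1 in segment 3 against 2 of Amacr-/- mice, and 7 to 8, 5 to 7, 7 to 8 and 5 to 6 in segment 4 against 1 and 4 against 3 of Amacr-/- mice and the same of wild-type mice. Counts over all genes by genotype were 2 to 32, 3 to 28, 2 to 10 and 3 to 17 in segments 1 to 4 (main 17, 11, 4 and 10). Array weights gave 349 in segment 1, 13 for the gradient difference and 2 for the interaction (main 0 for both). Fits of only the arrays compared gave 3, 1, 0 and 3. The cause of these shifts was not tested. Fabp2 and Apoa1, and Apoa4 and Fabp1 in segments 1 and 2, lie close to the top of the scale, which limits what their differences can show.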
